A study of Mus musculus with 2 samples.

Results

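The 10 genes described here encode chaperones and folding factors of the endoplasmic reticulum (ER) and 2 further genes of the unfolded protein response, the degradation factor Herpud1 and the transcription factor Xbp1. They were taken by symbol from the 32227 genes of the deposited matrices, and all 10 were found there. The series followed Meta4 organoids, a dysplastic gastric line, and asked which of their cells respond to pyrvinium, an anthelmintic drug, before the organoids change shape. Both libraries come from stomach corpus organoids of the genotype Mist1-CreERT2Tg/+ with LSL-K-ras(G12D)Tg/+, labelled as induced to dysplasia. One library is from organoids kept with the solvent DMSO and the other from organoids given pyrvinium, each for 1 day. Mist1 is a gene of the zymogenic chief cell, so the Cre of the animals was driven from a chief cell promoter. The labels name 1 organoid line. With 1 library per treatment no difference below has a replicate check and no test was run. "Higher" and "lower" compare these 2 libraries, and all intervals are 95% and cover counting error only.

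Proteins that enter the secretory pathway fold in the ER lumen with the help of chaperones and of enzymes that form disulfide bonds. When unfolded protein accumulates, the sensors IRE1, PERK and ATF6 start the unfolded protein response: IRE1 splices the RNA of Xbp1 into the form that encodes an active transcription factor, ATF6 is cut to release a transcription factor that binds chaperone gene promoters, and PERK slows translation and raises ATF4, which in turn drives Ddit3 (CHOP). Secretory cells of the stomach, chief cells among them, are known for abundant ER and for dependence on XBP1. Counts per gene do not separate spliced from unspliced Xbp1 RNA.

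Promoter stretches of 5 of these genes are printed here because they carry the letters of elements through which ATF6 and ATF4 are known to act. Of the 10 genes, 9 had a window in the RefSeq promoter table (build GRCm38.p6, 250 bases before to 50 after the start); Manf had none. The ER stress element, the site of ATF6 with the factor NF-Y, was searched on both strands as CCAAT and CCACG with 9 bases of any kind between them. It was in 4 of the 9 windows and in 39 of all 32851 windows, 0.119%. Of 20 windows of the other ER chaperone genes listed below, 2 had it. The shorter ER stress element II, ATTGG and CCACG with 1 base between, was in 1 of the 9 (Herpud1) and in 0.0365% of all. The core of the C/EBP-ATF response element, a site of ATF4 and CHOP searched as TGATGNAA, was also in 1 of the 9, again Herpud1, against 3.97% of all windows and 5 of 12 windows of the ATF4 arm genes listed below. The XBP1 core TGACGTGG was in 0 of the 9 and in 0.676% of all. Each stretch reads 5′ to 3′ on the strand of its gene and ends before the annotated start. Capitals mark the matched element, which reads as its reverse complement where it lies on the other strand. The ER stress element begins with the letters of a CCAAT box, which alone was in 8 of the 9 windows and in 37.4% of all.
Hspa5, chr2:34772013-34772055, plus strand: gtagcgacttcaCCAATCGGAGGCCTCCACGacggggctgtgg
Hsp90b1, chr10:86705521-86705668, minus strand: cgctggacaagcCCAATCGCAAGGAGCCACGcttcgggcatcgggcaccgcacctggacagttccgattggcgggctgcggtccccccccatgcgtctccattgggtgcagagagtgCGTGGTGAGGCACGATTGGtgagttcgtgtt
Calr, chr8:84847063-84847105, minus strand: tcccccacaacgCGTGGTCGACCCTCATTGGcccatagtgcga
Creld2, chr15:88819508-88819550, plus strand: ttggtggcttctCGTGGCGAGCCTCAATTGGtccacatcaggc
Herpud1, chr8:94386305-94386399, plus strand: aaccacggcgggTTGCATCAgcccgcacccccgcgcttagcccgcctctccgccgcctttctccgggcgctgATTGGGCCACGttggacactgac
The capitals of Herpud1 are the C/EBP-ATF core at positions -112 to -105 from the start and ER stress element II at -52 to -42. Hsp90b1 has 2 ER stress elements, at -212 to -194 and -107 to -89. A match is a description of letters, and binding was not measured.

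Kept cells were 1602 barcodes of the DMSO library with at least 9320 counts and 854 of the pyrvinium library with at least 13100. Their sums held 39980497 and 37046673 counts, with a median of 18592 and 31517 counts per cell, and 0 cell barcodes occurred in both libraries. The 5 epithelial markers summed to 7760 CPM (counts per 1000000) under DMSO and 4997 CPM under pyrvinium. Of the markers of other types, the 5 mucous neck genes summed to 392 CPM under DMSO and 277 CPM under pyrvinium (mostly Aqp5), the 4 surface mucous genes to 334 and 405 CPM (nearly all Tff1), the 4 tuft genes to 105 and 128 CPM (Pou2f3 and Avil, with Dclk1 and Trpm5 under 1 CPM), the 3 endothelial genes to 43.2 and 58.9 CPM (nearly all Cdh5) and the 4 immune genes to 21.5 and 29.1 CPM (nearly all Cd68). The 4 fibroblast genes summed to 0.725 and 0.513 CPM, the 4 enteroendocrine genes to 0.175 and 0.405, the 4 chief cell genes to 13.3 and 5.53, and the 3 parietal genes to 2.20 and 1.94. The 6 goblet genes summed to 31.2 and 17.0 CPM.

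Over all kept cells the pyrvinium library had more Hspa5 and Herpud1 and less Creld2, while the other 7 genes lay within 1.5-fold. Of the 10 genes, 2 were at least 1.5-fold higher with the whole interval above 1 and 1 was at least 1.5-fold lower. Over the 15586 genes measured with at least 20 counts, 7.57% were higher and 15.5% lower by the same rule, 1180 and 2416 genes, or 1558 and 1952 when scaled by the median of ratios. The median log2 ratio of pyrvinium over DMSO was -0.10 for the 10 genes and -0.08 for all genes measured. Summed, the 10 genes took 1792 CPM of the DMSO counts and 1929 CPM of the pyrvinium counts, a log2 ratio of 0.11 (0.09 to 0.12). The sum and the median differ in sign, and the sum gives abundant genes such as Hspa5 more weight. With equal weights for the 3 clusters that both libraries share, the median was 0.054 and 0 genes were at least 1.5-fold lower.

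**Figure D1:**
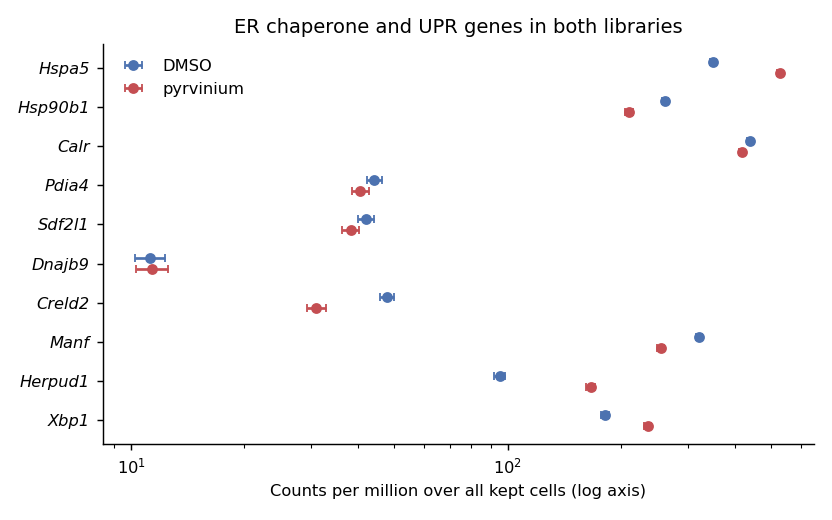
Level of each of the 10 genes in counts per 1000000 of all kept cells, on a log axis, in the DMSO library (blue) and the pyrvinium library (red); bars are 95% Poisson intervals. Hspa5, Herpud1 and Xbp1 lie to the right under pyrvinium, and Hsp90b1, Manf and Creld2 to the left.

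Hspa5 (ENSMUSG00000026864) encodes BiP, the Hsp70 chaperone of the ER lumen, which also holds the 3 sensors inactive. It was counted 13985 times in DMSO cells, 350 CPM (344 to 356), and 19503 times in pyrvinium cells, 526 CPM (519 to 534). The log2 ratio was 0.59 (0.56 to 0.62), just at the 1.5-fold limit, and it was under that limit in 4 of 9 alternative settings and above 0 in all 9. After thinning to 5000 counts per cell, an Hspa5 count was present in 68.4% of DMSO cells (66.1 to 70.7) and 80.0% of pyrvinium cells (77.1 to 82.6); without thinning the shares were 94.9% and 99.3%. Both the level and the share were thus higher in the pyrvinium library.

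The other general chaperones did not follow it. Hsp90b1 (ENSMUSG00000020048) encodes GRP94, the Hsp90 of the ER, and was at 261 CPM (256 to 266) under DMSO and 209 CPM (205 to 214) under pyrvinium, a log2 ratio of -0.32. Its share of thinned cells was 66.6% (64.2 to 68.9) and 61.7% (58.4 to 65.0), and 93.4% and 96.1% without thinning. Calr (ENSMUSG00000003814), the gene of the lectin chaperone calreticulin, was at 438 CPM (432 to 445) and 417 CPM (411 to 424), with 85.1% and 84.3% of thinned cells. Hspa5, Hsp90b1 and Calr each carry an ER stress element in the sequences above, and their log2 ratios were 0.59, -0.32 and -0.07.

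The enzymes and co-chaperones were close to even or lower. Pdia4 (ENSMUSG00000025823), a protein disulfide isomerase, was at 44.2 CPM (42.2 to 46.4) under DMSO and 40.6 CPM (38.6 to 42.7) under pyrvinium. Sdf2l1 (ENSMUSG00000022769), a partner of ER DnaJ proteins in the BiP cycle, was at 42.0 CPM (40.0 to 44.0) and 38.3 CPM (36.3 to 40.3). Dnajb9 (ENSMUSG00000014905), the DnaJ protein ERdj4 that brings BiP to IRE1, was at 11.3 CPM (10.2 to 12.3) and 11.4 CPM (10.3 to 12.5), which differed by less than counting error. The shares of thinned cells were 19.0% and 19.0% for Pdia4, 19.5% (17.6 to 21.5) and 17.7% (15.2 to 20.4) for Sdf2l1, and 5.87% (4.77 to 7.13) and 5.97% (4.48 to 7.78) for Dnajb9. For these 3 genes a difference in share was not detectable at this depth.

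Creld2 (ENSMUSG00000023272), which encodes a secreted ER protein with thioredoxin-like activity, was the 1 gene at least 1.5-fold lower. It was counted 1910 times under DMSO, 47.8 CPM (45.7 to 49.96), and 1150 times under pyrvinium, 31.0 CPM (29.3 to 32.9), a log2 ratio of -0.62 (-0.73 to -0.52). The share of thinned cells was 22.0% (19.97 to 24.1) under DMSO and 14.9% (12.6 to 17.4) under pyrvinium, although without thinning it was 57.1% and 59.7%. Creld2 was under 1.5-fold in 3 of 9 alternative settings and below 0 in all 9. Manf (ENSMUSG00000032575), a small ER protein that stabilizes BiP with its clients, was at 321 CPM (316 to 327) and 254 CPM (249 to 259), with 66.7% and 66.2% of thinned cells. Both genes were thus lower in CPM over all kept cells in the library where Hspa5 was higher. The log2 ratio of Manf was -0.34, and it was above 0 in 1 of 9 alternative settings, at 0.036 with equal cluster weights.

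Herpud1 (ENSMUSG00000031770) encodes a membrane protein that organizes the ubiquitin ligase complex of ER-associated degradation. It was counted 3801 times under DMSO, 95.1 CPM (92.1 to 98.1), and 6138 times under pyrvinium, 166 CPM (162 to 170). The log2 ratio of 0.80 (0.74 to 0.86) was past 1.5-fold in all 9 alternative settings, which spanned 0.71 to 1.17. A count was found in 33.9% of thinned DMSO cells (31.6 to 36.3) and 51.5% of pyrvinium cells (48.1 to 54.9), and in 73.3% and 91.9% without thinning. Herpud1 is the 1 gene of the 9 with a C/EBP-ATF core in its window, and a link of that core to the ratio was not tested. Xbp1 (ENSMUSG00000020484), the transcription factor gene, was at 181 CPM (177 to 185) and 235 CPM (230 to 240), a log2 ratio of 0.38 (0.33 to 0.42). Its share of thinned cells was 55.1% (52.6 to 57.6) under DMSO and 57.4% (54.0 to 60.7) under pyrvinium, so the higher level went with a similar share of cells.

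These genes are used by every cell, so the shares have no negative cell type to be read against. The lowest share of thinned cells with an Hspa5 count was 52.0%, in DMSO cells of cluster 1, among the clusters described below. Barcodes with 100 to 500 counts, taken as a profile of free RNA, held Hspa5 at 404 CPM under DMSO and 630 CPM under pyrvinium and Herpud1 at 110 and 184 CPM. Cells held each of the 10 genes at 0.693 to 1.13 times its level in these barcodes, so a level alone does not separate free RNA from RNA of the cell. If 10% of all counts were free RNA, that part alone would put Hspa5 in 18.3% of thinned DMSO cells and 27.01% of pyrvinium cells, and Herpud1 in 5.36% and 8.77%. The part of free RNA in the shares was not tested.

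The genes were spread unevenly over cells. At 5000 counts per cell, the 10 genes together had a median of 8 counts in a DMSO cell (quartiles 5 and 12, highest 87) and of 9 in a pyrvinium cell (quartiles 6 and 12, highest 47). The variance was 5.37 times the mean under DMSO and 3.31 times under pyrvinium. A median of 4 of the 10 genes was counted in a DMSO cell and 5 in a pyrvinium cell. Cells with at least 20 counts of the 10 genes were 90 of 1602 under DMSO, 5.62% (4.54 to 6.86), and 56 of 854 under pyrvinium, 6.56% (4.99 to 8.43), so the share of such cells did not differ beyond counting error. These cells were chosen by the genes themselves and are a description; 46 of the 90 were in cluster 5 and 46 of the 56 in cluster 1 of the clusters described below. Ddit3, a gene of the PERK branch, was counted in 45 of the 90 against 10.6% of the other DMSO cells, and in 48 of the 56 against 54.6% of the other pyrvinium cells. Hspa5 made up 30.3% of their counts of the 10 genes under DMSO against 17.4% in the other cells, and 41.5% against 24.5% under pyrvinium, while Xbp1 made up 3.56% against 11.7% and 5.16% against 13.5%.

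**Figure D2:**
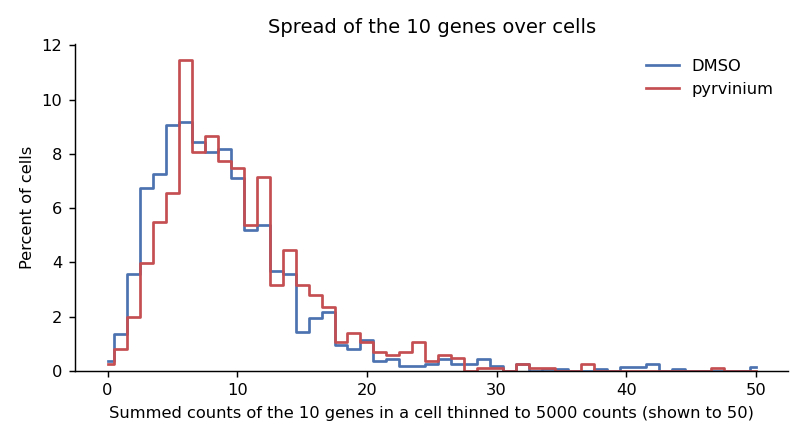
Percent of cells of each library (vertical axis) by the summed counts of the 10 genes in a cell thinned to 5000 counts (horizontal axis, shown up to 50), for DMSO (blue) and pyrvinium (red). The 2 curves overlap around their medians of 8 and 9, and both have a thin tail to the right.

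Cells were clustered on variable genes without the 10 genes and without the ER lists given below, so that the clusters are not built on these genes. Clusters are named by number, and their leading genes are given only to identify them. Cluster 1 was led by Cnfn and Ccl20, cluster 2 by the DNA synthesis genes Tyms and Mcm5, cluster 3 by the mitosis genes Ube2c and Cdc20, cluster 4 by Spink4 and Ccnd2, cluster 5 by genes that include Ndrg1 and Nupr1, cluster 6 by Thbs1 and Ihh and cluster 7 by Itln1 and Mmp7. Clusters 1, 2 and 3 held 98, 373 and 279 DMSO cells and 414, 37 and 122 pyrvinium cells. Clusters 4, 5 and 7 were read under DMSO only (337, 300 and 201 cells) and cluster 6 under pyrvinium only (242 cells), since the other library had under 30 cells there. A cluster mostly of 1 library may be that library and not a cell type.

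Within the DMSO library, Hspa5 went from 201 CPM in cluster 1 to 700 CPM in cluster 5, with 232, 279, 328 and 345 CPM in clusters 4, 2, 3 and 7. Intervals of neighbours in this order did not overlap except for clusters 3 (314 to 341) and 7 (326 to 364). Herpud1 was also lowest in cluster 1, at 51.6 CPM (43.6 to 60.6, overlapping the 57.0 CPM of cluster 2), and highest in cluster 5, at 213 CPM (202 to 224), while Calr, Manf and Pdia4 were highest in cluster 7, at 579, 444 and 63.3 CPM. Hspa5 and Herpud1 thus varied 3.48-fold and 4.13-fold between DMSO clusters, and the sum of the 10 genes 2.18-fold, from 1128 to 2455 CPM. Sdf2l1 went the other way, with its lowest level, 29.2 CPM, in cluster 5. The DMSO cells of cluster 5 had Hspa5 at 700 CPM (681 to 721), which overlaps the 691 CPM (679 to 703) of pyrvinium cells of cluster 1.

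Within the pyrvinium library Hspa5 and Xbp1 had opposite orders. Hspa5 was highest in cluster 1, at 691 CPM, followed by 606 CPM in cluster 3, 296 CPM (270 to 324) in cluster 2 and 256 CPM (246 to 265) in cluster 6, and no 2 of these intervals overlapped. Xbp1 was highest in cluster 6, at 412 CPM (400.4 to 424), against 150 CPM (144 to 155) in cluster 1, and 200.5 and 161 CPM in clusters 2 and 3; the interval of cluster 3 (151 to 173) overlaps that of cluster 1. Of thinned cells, 78.5% in cluster 6 and 46.6% in cluster 1 had an Xbp1 count. The sum of the 10 genes varied only 1.33-fold between the 4 clusters, from 1580 to 2104 CPM.

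**Figure D3:**
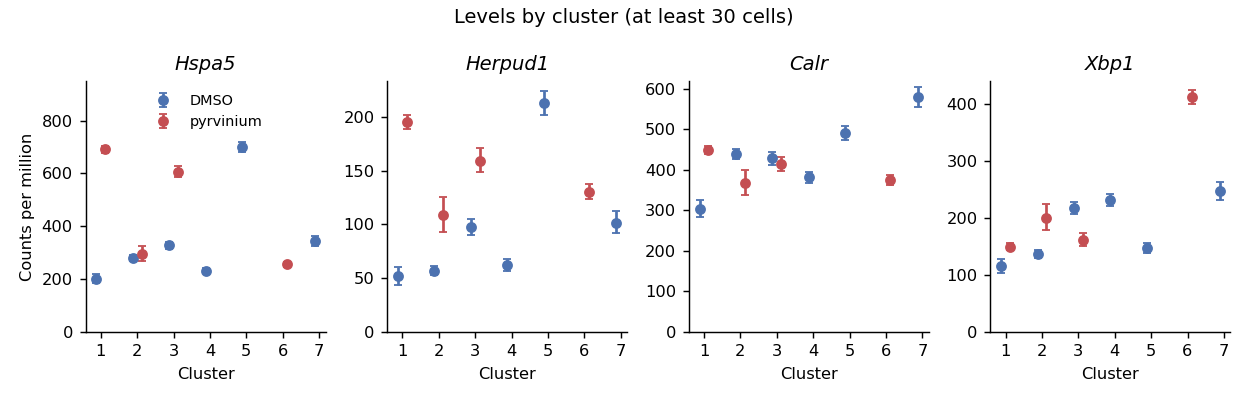
Level in counts per 1000000 (vertical axis, from 0, a separate scale in each panel) of Hspa5, Herpud1, Calr and Xbp1 in each cluster with at least 30 cells of the library, for DMSO (blue) and pyrvinium (red), with 95% Poisson intervals. Hspa5 reaches 700 CPM in DMSO cluster 5 and 691 CPM in pyrvinium cluster 1, and Xbp1 reaches 412 CPM in pyrvinium cluster 6.

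The ratio of pyrvinium over DMSO differed in size between the 3 shared clusters. In cluster 1, Hspa5 was at 201 and 691 CPM, a log2 ratio of 1.78 (1.66 to 1.90), Herpud1 at 51.6 and 195 CPM, 1.92 (1.68 to 2.17), and Manf at 165 and 257 CPM, 0.64 (0.50 to 0.78). These 3 of the 10 genes were at least 1.5-fold higher there and 0 lower, against 6.79% and 18.2% of all genes measured in cluster 1, and the sum of the 10 genes was at 1128 and 2063 CPM. In cluster 2, 1 gene was higher, Herpud1 at 57.0 and 108 CPM, and 0 lower, against 5.68% and 9.26% of genes; Hspa5 was at 279 (270 to 290) and 296 CPM (270 to 324), which overlap. In cluster 3, Hspa5 at 328 and 606 CPM and Herpud1 at 97.5 and 159 CPM were higher and 0 genes lower, against 11.7% and 15.9% of genes. Herpud1 was the 1 gene past the limit in all 3 clusters. Creld2 had a log2 ratio below 0 in each, with -0.29 (-0.60 to 0.02) in cluster 1, -0.47 in cluster 2 and -0.51 in cluster 3.

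Summed counts weight deep cells more, and this touches cluster 3. With every cell thinned to 5000 counts and so weighted equally, a setting chosen after seeing the data, Hspa5 in cluster 3 was at 320 and 434 CPM (log2 ratio 0.44, 0.21 to 0.66) and Herpud1 at 100.4 and 144 CPM (0.52), both under 1.5-fold. Creld2 was there at 60.2 and 32.8 CPM, a log2 ratio of -0.88 (-1.66 to -0.16), past the limit. In cluster 1 the same setting gave 1.90 for Hspa5, 1.42 for Herpud1 and 0.87 for Manf, and it put Calr (0.74) and Pdia4 (1.29, from 9 DMSO counts) past 1.5-fold. In cluster 2 it gave 1.53 for Herpud1 and 0.84 (0.36 to 1.29) for Xbp1.

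**Figure D4:**
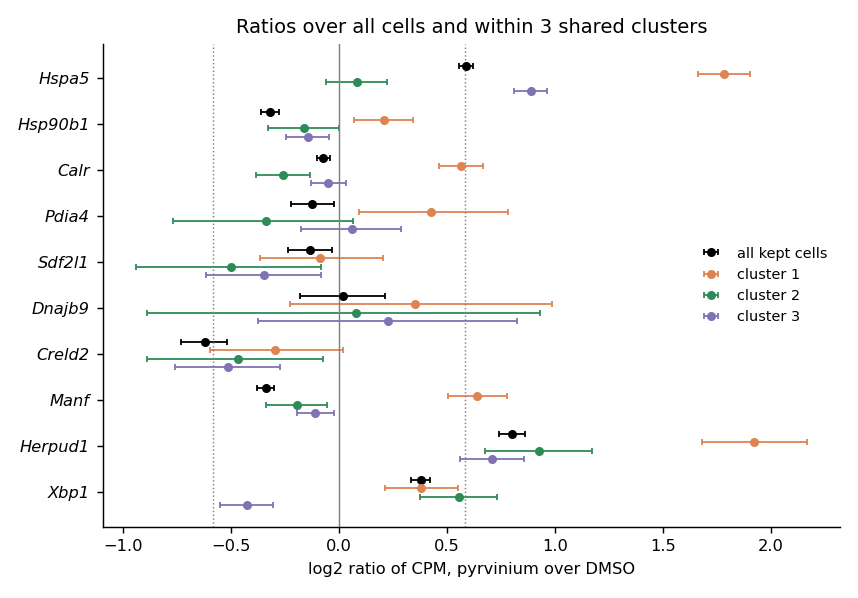
log2 ratio of CPM, pyrvinium over DMSO (horizontal axis), of each gene over all kept cells (black) and within clusters 1 (orange), 2 (green) and 3 (purple), from summed counts with 95% intervals; dotted lines mark 1.5-fold. Hspa5 and Herpud1 in cluster 1 lie farthest to the right, at 1.78 and 1.92.

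Over all cells of each library, the levels of Hspa5, Herpud1 and Manf were higher in cells with more Ddit3 counts. Within clusters this held only in part, and least for Manf under pyrvinium. Over all cells the level of Xbp1 was lower, while within clusters its direction was mixed and its intervals mostly overlapped, as given below. Ddit3 (ENSMUSG00000025408), which encodes CHOP, is not among the 10 genes. It was at 39.1 CPM under DMSO and 311 CPM under pyrvinium. After thinning to 5000 counts, 1397 DMSO cells had 0 counts of Ddit3, 132 had 1 and 73 had 2 or more, and the pyrvinium library had 370, 177 and 307 such cells. Hspa5 was at 288 CPM (275 to 300.5), 591 CPM (534 to 653) and 1512 CPM (1389 to 1644) in these DMSO classes and at 358 CPM (332 to 387), 521 CPM (474 to 571) and 788 CPM (744 to 833) in the pyrvinium classes. Hspa5 was therefore higher under pyrvinium in cells with 0 counts of Ddit3 at this depth and higher under DMSO in cells with 2 or more.

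Herpud1 had the same pattern, from 81.3 to 405 CPM under DMSO and from 127 to 231 CPM under pyrvinium between the lowest and the highest class. Creld2 went from 45.8 CPM (40.9 to 51.1) to 118 CPM (85.3 to 159) under DMSO, but stayed between 29.2 CPM (21.9 to 38.1) and 36.5 CPM (27.6 to 47.4) under pyrvinium. Manf went from 304 to 712 CPM under DMSO and from 233 to 321 CPM under pyrvinium, and Hsp90b1 from 249 to 622 CPM and from 201 CPM (181 to 222) to 226 CPM (203 to 251). Over all cells Xbp1 was lower in the highest class of both, at 194 and 137 CPM (102 to 181) under DMSO and at 278 and 192 CPM under pyrvinium. In cells with 0 counts of Ddit3 the sum of the 10 genes was 1691 CPM (1661 to 1722) under DMSO and 1709 CPM (1650 to 1770) under pyrvinium, which overlap; these cells fall in unlike clusters, and within cluster 1 the sums did not overlap (below). In cells with 2 or more it was 4334 CPM (4123 to 4553) and 2395 CPM (2319 to 2474).

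These classes do not hold the same kinds of cells in the 2 libraries. Of the 73 DMSO cells with 2 or more counts of Ddit3, 59 were in cluster 5, and of the 307 pyrvinium cells 219 were in cluster 1. In cluster 3, which both libraries share, Hspa5 was at 279 CPM (250 to 309) in 252 DMSO cells with 0 counts of Ddit3 and at 711 CPM (576 to 868) in 27 cells with 1 or more. The pyrvinium cells of cluster 3 had 344 CPM (270 to 432) in 43 cells and 484 CPM (417 to 557) in 79. Hspa5 was likewise higher with Ddit3, with intervals apart, in DMSO cluster 5 and pyrvinium cluster 1, while the intervals overlapped in DMSO cluster 2 and in pyrvinium clusters 3 and 6. The intervals of Herpud1 were apart and overlapped in the same clusters as those of Hspa5. Manf was higher with Ddit3, with intervals apart, in DMSO clusters 3 and 5 only. Under pyrvinium its intervals overlapped in clusters 1, 3 and 6. In pyrvinium cluster 3 Manf was at 372 CPM (295 to 463) with 0 counts of Ddit3 and 319 CPM (266 to 380) with 1 or more. In cluster 1, cells with 0 counts of Ddit3 had Hspa5 at 189 CPM (151 to 234) under DMSO (90 cells) and 564 CPM (505 to 628) under pyrvinium (117 cells). The sum of the 10 genes in these cells was 1084 CPM (990 to 1185) and 1798 CPM (1691 to 1910), higher in the pyrvinium cells. A count of 0 after thinning does not show that a cell lacked Ddit3 RNA. Whether the DMSO and pyrvinium cells with 0 counts had like levels of Ddit3 was not tested. Xbp1 was higher with Ddit3 in cluster 1 of the pyrvinium library, at 111 CPM (85.8 to 142) in cells with 0 counts of Ddit3 and 166 CPM (146 to 188) in the 297 cells with 1 or more. Its intervals overlapped in the other clusters that had at least 20 cells of both kinds. In cluster 6 they were 431 CPM (387 to 478) and 471 CPM (406 to 544), and in cluster 5 of the DMSO library 153 CPM (128 to 180) and 159 CPM (129 to 195). Point values of Xbp1 were lower with Ddit3 in DMSO clusters 2 and 3 and in pyrvinium cluster 3. They were 145 CPM (128 to 164) and 85.7 CPM (39.2 to 163) in DMSO cluster 2. In DMSO cluster 3 they were 221 CPM (196 to 249) and 207 CPM (138 to 300). In pyrvinium cluster 3 they were 195 CPM (141 to 264) and 149 CPM (114 to 193). Xbp1 was thus in none of these clusters lower with Ddit3 beyond counting error. Intervals this wide do not show that it was not lower. Cluster, library and Ddit3 class cannot be fully told apart here.

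**Figure D5:**
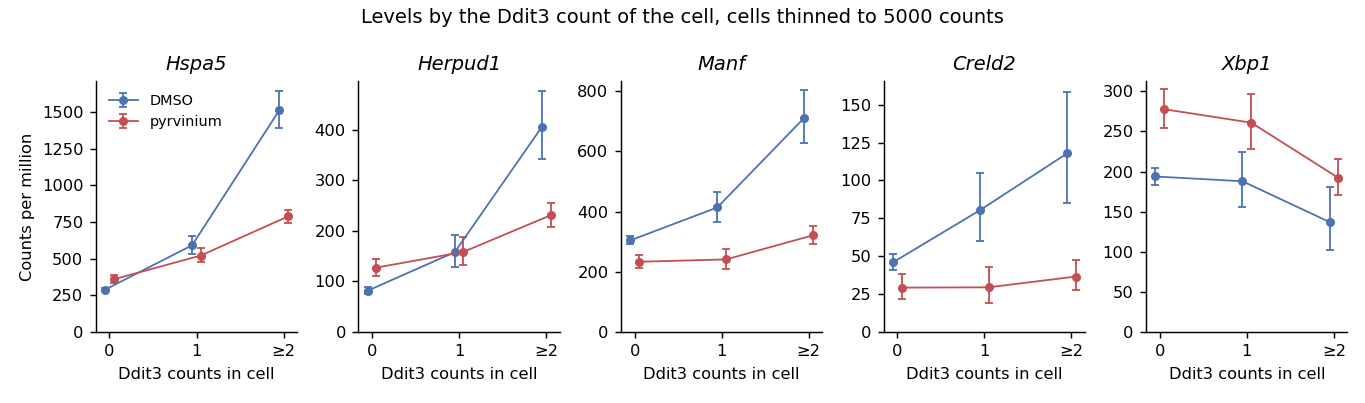
Level in counts per 1000000 (vertical axis, from 0, a separate scale in each panel) of Hspa5, Herpud1, Manf, Creld2 and Xbp1 in cells with 0, 1 or at least 2 counts of Ddit3 after thinning to 5000 counts, for DMSO (blue) and pyrvinium (red), with 95% Poisson intervals. Hspa5 reaches 1512 CPM in the highest DMSO class and 788 CPM in the highest pyrvinium class, and Xbp1 over all cells is lowest in the highest class of both libraries.

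Across cells of both libraries, the correlation with the sum of the other 9 genes was highest for Hspa5, Hsp90b1, Calr and Manf and lowest for Sdf2l1 and Xbp1. The Pearson correlation of log(1 + counts per 10000) across 1602 DMSO and 854 pyrvinium cells was 0.62 and 0.45 for Hspa5, 0.57 and 0.48 for Hsp90b1, 0.57 and 0.50 for Calr, 0.58 and 0.47 for Manf and 0.38 and 0.43 for Herpud1. It was 0.37 and 0.36 for Pdia4, 0.34 and 0.22 for Creld2 and 0.17 and 0.17 for Dnajb9. It was 0.05 and -0.09 for Xbp1 and 0.09 and 0.05 for Sdf2l1. The closest pair was Hspa5 with Hsp90b1 under DMSO (0.54) and Hspa5 with Manf under pyrvinium (0.51), and the lowest was Hspa5 with Xbp1 under pyrvinium (-0.24, and -0.01 under DMSO). Cells of a library share its depth range and free RNA, and the rarer genes are sparse, so weak values carry no reading. Of 3588 other genes ranked by the smaller of the 2 libraries' correlations with the summed 10 genes, the 5 most alike were the disulfide isomerase genes Pdia3 (0.53), Pdia6 (0.53) and P4hb (0.47), then Ddit3 (0.42) and the signal peptidase gene Spcs2 (0.41). Of these, Pdia3, Pdia6, P4hb and Spcs2 had log2 ratios of pyrvinium over DMSO of -0.52, -0.32, -0.75 and -0.52, and Ddit3 one of 2.99.

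The rest of the ER machinery was described with 9 lists, beside the 7.57% of genes higher and 15.5% lower over all cells. Of 16 other chaperones and co-chaperones of the ER, 0 were at least 1.5-fold higher or lower (median log2 ratio -0.04). Sil1, the exchange factor of BiP, was at 41.0 CPM under DMSO and 53.8 CPM under pyrvinium, Dnajc3, a co-chaperone of BiP, at 56.8 and 45.5, Cnpy2 at 159 and 140 and Fkbp2, a prolyl isomerase, at 367 and 302. Of 18 genes of disulfide formation, 7 were lower and 1 higher (median -0.36), or 5 and 2 by the median of ratios. Agr2, the isomerase of mucus-secreting cells, was at 517 and 182 CPM and Pdia5 at 16.9 and 8.18 CPM. Creld1, the paralog of Creld2, was at 10.8 and 23.2 CPM. Ero1a, the oxidase that recharges the isomerases and is also known as a hypoxia-inducible gene, was at 283 and 106 CPM. Ero1a ranked 5 among the leading genes of cluster 5, which held 300 DMSO cells and 4 pyrvinium cells. The part of clusters in its ratio was not tested.

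Of 22 measured genes of ER-associated degradation, 2 were lower and 0 higher (median -0.07): Derl2, a channel component, was at 91.3 and 54.2 CPM and Ufd1, a cofactor of the extracting ATPase, at 40.2 and 25.2 CPM. Vcp, the ATPase itself, was at 102 and 72.1 CPM and Ube2j1 at 28.3 and 20.1 CPM, both within 1.5-fold. Herpud1 was thus higher in a library where 0 of these 22 were. Of 30 genes of the translocon, signal peptidase and oligosaccharyltransferase, 0 passed in either direction (median -0.23, against -0.08 for all genes measured). The whole interval lay below 1 for 21 of them and above 1 for 5, against 33.5% and 21.7% of all genes. Intervals are narrower at higher counts, and all genes include those with as few as 20 counts, so these shares are not like for like. Sec61a1, the translocon pore, was at 253 and 186 CPM, Srp9 at 324 and 226, Spcs2 at 249 and 174 and Dad1 at 311 and 234 CPM. The 7 genes of N-glycan quality control (median -0.12) and the 19 of ER export and KDEL retrieval (median -0.11) also had 0 past the limit. The largest ratio of the export list was that of Sec23a, a coat protein of export vesicles, at 9.50 and 13.98 CPM (log2 ratio 0.56, 0.36 to 0.75), which was past 1.5-fold by the median of ratios. The KDEL receptor genes Kdelr1 and Kdelr3 were at 169 and 206 CPM and at 11.7 and 8.23 CPM, and Tmed9, a cargo receptor, at 636 and 494 CPM. Of the glycan genes, Mogs was at 19.6 and 16.2 CPM, Ganab at 63.8 and 53.1, Mlec at 64.5 and 56.1 and Man1b1 at 15.8 and 14.5 CPM. Of 11 ER calcium genes, 2 were higher and 1 lower (median 0.25): Itpr1 at 2.75 and 4.37 CPM, Itpr2 at 1.33 and 2.83 CPM and Nucb2 at 22.2 and 14.4 CPM. Itpr1, Itpr2 and, below, Ppp1r15a fall outside the rule for named genes and were named after their values were seen.

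The sensors and transcription factors were split, with 2 of 12 higher and 2 lower (median -0.14). Ern1, the gene of IRE1, was at 4.35 and 10.2 CPM, a log2 ratio of 1.23 (0.97 to 1.497), and Atf6 at 35.4 and 61.6 CPM (0.80). Ern2, the IRE1 form of mucus-secreting epithelium, was at 11.8 and 5.91 CPM (-1.001) and Creb3l4, an ATF6-like factor of secretory cells, at 18.2 and 6.69 CPM (-1.44). Beside Ern2 and Creb3l4, the 5 mucous neck markers summed to 392 and 277 CPM and the 4 surface mucous markers to 334 and 405 CPM. The 6 goblet markers summed to 31.2 and 17.0 CPM and the 4 chief cell markers to 13.3 and 5.53 CPM. Creb3l4 ranked 9 among the leading genes of cluster 7, which held 201 DMSO cells and 11 pyrvinium cells. The part of cell types or clusters in this was not tested. Of 12 genes of the ATF4 arm, which the integrated stress response shares, 9 were higher and 2 lower, with a median of 0.89. Ddit3, Trib3 (23.7 and 113 CPM) and Atf5 (9.65 and 39.6 CPM) were higher, and Atf3 (162 and 25.7 CPM) and Ppp1r15a (62.9 and 23.8 CPM) lower. The 10 ER genes, with 2 higher and 1 lower, and the ATF4 arm, with 9 higher and 2 lower, were not tested against each other, since each group has 1 library.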

How the data were processed

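Single-cell libraries of DMSO-treated and pyrvinium-treated organoids, 1 each, were made with the PIPseq T2 kit, per the labels' protocols. Partek and the build GRCm39 are named in the submitters' processing notes; aligner, counting tool, annotation and barcode filter were not given in the sources used here. The deposited matrices hold whole-number counts per gene and barcode, not normalized. No source says whether a count is a molecule.

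Cells were barcodes with at least 1/10 of the count at the 99th percentile among the 2000 largest of each library, at least 500 genes and at most 20% mitochondrial counts (0 removed). Doublets were kept. Counts were summed per library and scaled to CPM, with exact Poisson intervals and exact conditional binomial intervals of the ratio, checked on simulated counts. Shares have exact Clopper-Pearson intervals after thinning to 5000 counts, which left out 0 cells. Clusters used 2000 variable genes scaled within each library, 30 principal components, 15 neighbours and Leiden (leidenalg 0.10.2) at resolution 0.5; Scrublet scores came from scanpy 1.11.5. Ddit3 is the lower of 2 Ensembl numbers under that symbol. Named are the 10 genes, up to 4 genes per list with the largest ratio at 10 CPM or more, and the 5 most alike at 20 CPM or more. The genes and lists were chosen with earlier results of these data known. Promoter sequences are RefSeq's (GRCm38.p6), found by symbol and not by coordinates of the files.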

Additional observations from a re-analysis of the deposited data

Results flagged for a closer look

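In summed counts, Calr, Manf, Hsp90b1 and Xbp1 had ratios of pyrvinium over DMSO above 1 in a shared cluster and below 1 in another, with the whole counting interval. With 1 library per group the difference was not tested. Calr had a log2 ratio of 0.56 in cluster 1 and -0.26 in cluster 2. Manf had 0.64 in cluster 1, -0.19 in cluster 2 and -0.11 in cluster 3. Hsp90b1 had 0.21 in cluster 1 and -0.14 in cluster 3. Xbp1 had 0.38 in cluster 1, 0.55 in cluster 2 and -0.43 in cluster 3. With every cell thinned to 5000 counts and weighted equally, the pattern remained for Manf and Xbp1 but not for Calr and Hsp90b1. In that setting Calr in cluster 2 had -0.29 (-0.67 to 0.07) and Hsp90b1 in cluster 1 had 0.30 (-0.03 to 0.65). Manf in cluster 2 had -0.45 (-0.92 to -0.003), an interval that barely stays below 0.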

How the results depend on the processing

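Herpud1 stayed at least 1.5-fold higher in all 9 alternative settings, Hspa5 in 5 and Creld2 at least 1.5-fold lower in 6. The count of genes at least 1.5-fold higher went from 2 to 1 at thresholds of 1000 and 3000 counts, with the mean over cells and with 10% free RNA subtracted, since Hspa5 lies at the limit. The count lower went from 1 to 0 when scaled without mitochondrial and ribosomal protein genes, by the median of ratios (which centres on a median of -0.086 over 11423 genes) and with equal cluster weights. The summed log2 ratio of 0.11 was 0.089 at the threshold of 1000 counts, 0.18 without mitochondrial and ribosomal protein genes, 0.19 by the median of ratios, 0.13 without the 5% of cells with the highest Scrublet scores, 0.30 with equal cluster weights and 0.16 among the 1116 and 674 cells whose depths overlap. The median of -0.10 was -0.024 without mitochondrial and ribosomal protein genes, -0.011 by the median of ratios, -0.078 without those highest Scrublet scores and -0.12 with the mean over cells, and it turned to 0.054 with equal cluster weights. Among the ER lists, the median of ratios put 2 instead of 1 genes of disulfide formation and 1 instead of 0 of ER export higher, and 5 instead of 7 of disulfide formation and 0 instead of 1 calcium genes lower. Shares of cells moved with the thinning depth, as given above without thinning. Dnajb9, with 450 and 422 counts, is the gene that depth limits most. No paired analysis was possible because each group has 1 library.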
